A study of Mus musculus with 4 samples.

Results

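Of the 32011 distinct open regions in the list, 4802 (15.0%) lay alone inside a protein-coding gene. A region was counted here when its midpoint fell within a protein-coding gene of the RefSeq table of GRCm38, over 1 kb from either end of every gene in that table, and when no other region had its midpoint within 12500 bp. The fold of a region, used throughout, is its signal at the strongest summit divided by the local background as the peak caller gave it. These solitary regions were chosen by position only, and no signal value entered the choice. They covered 2.01 Mb of sequence and lay in 3203 genes, 14.6% of the 21883 protein-coding genes.

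Open regions were measured by bulk ATAC-seq, in which the Tn5 transposase cuts DNA that is not wrapped in nucleosomes. The labels describe 4 non-irradiated organoid samples grown from the submandibular salivary gland of C57BL/6 mice, 2 at Passage 1 and 2 at Passage 2, and within each passage 1 sample came from a 12-week-old and 1 from a 3-month-old mouse. The study's methods name only female mice. Organoids grew in Matrigel with EGF, FGF2, R-spondin1, Wnt3a, dexamethasone and Y27632, and all 4 samples shared these conditions. The single deposited list holds no value by sample, so no passage or age could be compared, the depth of each sample is unknown and no replicate spread can be given. The study's methods describe a consensus list over all samples but give another number of peaks than this list holds. The step that made this list is not given in the sources used here, and every count of solitary regions depends on which regions are listed. Regions and genes are not replicates of a condition, so each p-value below describes this list alone and each 95% Wilson interval covers counting error only.

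Open chromatin inside a gene is known to mark enhancers, which act on promoters over distance, and promoters from which shorter transcripts start. Many enhancers of cell identity genes stand in clusters, and the regions described here are those with no such company. In promoters, CpG-rich sequence, GC boxes bound by Sp and Klf factors, CCAAT boxes bound by NF-Y and the CCGGAAG core of ETS factors are typical of genes used in most cell types, whereas TATA boxes are typical of genes used in few.

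A minority of the solitary regions stood on an annotated transcription start inside their gene. RefSeq start windows of GRCm38.p6, each 300 bases long with 250 bases before and 50 after a start, could be compared with 4626 of the 4802 regions, and 342 of these (7.39%, 95% Wilson interval 6.67 to 8.18) overlapped the nearest window. In 340 cases the window belonged to the host gene itself. The 250 bases before the start, 5′ to 3′ on the strand of the gene, are shown for the 5 internal starts whose solitary region had the highest fold, as the strongest examples, and for Clcn3, a pro-acinar marker. Pairs of starts were drawn only from the 53 genes whose outermost start also had a window and had no region within 1 kb. Pcca and Arhgap32 had the strongest regions among these genes. Their outermost start, free of regions by this choice, stands beside the internal one. Capitals mark the GC box GGGCGG, the CCAAT box CCAAT and the ETS core CCGGAAG on either strand.
Pcca, internal start, chr14:122534078-122534327, + strand: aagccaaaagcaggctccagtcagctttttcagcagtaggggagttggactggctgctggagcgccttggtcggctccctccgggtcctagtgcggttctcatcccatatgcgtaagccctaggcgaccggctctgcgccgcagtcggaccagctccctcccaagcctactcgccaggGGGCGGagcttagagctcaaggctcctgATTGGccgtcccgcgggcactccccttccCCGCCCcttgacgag
Pcca, outermost start, chr14:122484115-122484364, + strand: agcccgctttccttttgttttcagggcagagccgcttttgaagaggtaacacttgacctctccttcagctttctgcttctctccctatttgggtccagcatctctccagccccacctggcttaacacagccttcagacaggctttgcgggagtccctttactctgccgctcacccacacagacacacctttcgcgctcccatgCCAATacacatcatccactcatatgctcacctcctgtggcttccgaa
Lrif1, internal start, chr3:106721432-106721681, + strand: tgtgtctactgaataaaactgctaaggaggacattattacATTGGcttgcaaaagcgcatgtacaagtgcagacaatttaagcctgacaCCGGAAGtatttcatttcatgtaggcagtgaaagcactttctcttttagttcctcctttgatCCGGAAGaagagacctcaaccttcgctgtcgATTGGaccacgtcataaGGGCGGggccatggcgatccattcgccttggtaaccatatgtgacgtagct
Zfp33b, internal start, chr5:104571422-104571671, + strand: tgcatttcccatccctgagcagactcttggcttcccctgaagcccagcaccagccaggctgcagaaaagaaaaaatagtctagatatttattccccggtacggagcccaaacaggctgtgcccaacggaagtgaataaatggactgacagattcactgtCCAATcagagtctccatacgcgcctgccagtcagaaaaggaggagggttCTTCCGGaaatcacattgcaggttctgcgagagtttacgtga
Clybl, internal start, chr14:122181444-122181693, + strand: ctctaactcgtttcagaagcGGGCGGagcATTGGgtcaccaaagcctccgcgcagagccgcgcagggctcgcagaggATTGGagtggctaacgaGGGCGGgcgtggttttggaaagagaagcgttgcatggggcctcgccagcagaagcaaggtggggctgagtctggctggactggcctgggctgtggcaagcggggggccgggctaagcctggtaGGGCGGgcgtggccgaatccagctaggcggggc
Gm7072, internal start, chr17:22314843-22315092, - strand: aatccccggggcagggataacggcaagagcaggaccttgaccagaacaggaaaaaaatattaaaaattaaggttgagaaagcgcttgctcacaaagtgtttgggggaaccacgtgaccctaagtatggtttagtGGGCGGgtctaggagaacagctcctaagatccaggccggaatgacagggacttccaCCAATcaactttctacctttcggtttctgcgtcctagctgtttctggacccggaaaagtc
Clcn3, internal start, chr8:60954800-60955049, - strand: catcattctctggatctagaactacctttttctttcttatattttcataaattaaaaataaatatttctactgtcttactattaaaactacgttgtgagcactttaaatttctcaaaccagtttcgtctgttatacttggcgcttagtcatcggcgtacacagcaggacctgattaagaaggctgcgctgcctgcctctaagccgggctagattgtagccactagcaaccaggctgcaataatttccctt
Arhgap32, internal start, chr9:32224025-32224274, + strand: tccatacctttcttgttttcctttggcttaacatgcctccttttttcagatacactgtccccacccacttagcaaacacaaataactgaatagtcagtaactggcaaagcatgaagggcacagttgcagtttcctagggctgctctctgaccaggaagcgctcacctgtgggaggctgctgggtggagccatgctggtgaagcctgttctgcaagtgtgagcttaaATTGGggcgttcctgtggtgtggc
Arhgap32, outermost start, chr9:32016375-32016624, + strand: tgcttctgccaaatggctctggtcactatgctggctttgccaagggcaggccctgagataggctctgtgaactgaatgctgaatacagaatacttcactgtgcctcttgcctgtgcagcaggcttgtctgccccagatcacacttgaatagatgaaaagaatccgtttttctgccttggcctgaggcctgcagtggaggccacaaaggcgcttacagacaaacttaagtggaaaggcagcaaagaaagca

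Pcca encodes a subunit of the mitochondrial propionyl-CoA carboxylase, and its internal start held 2 GC boxes and 1 CCAAT box, whereas its closed outermost start, 49.9 kb from the region, held 1 CCAAT box and no GC box. The region at chr14:122533966-122534573 reached a fold of 21.0 and covered all 300 bases of the internal window. Clybl, whose product is a mitochondrial lyase, had 3 GC boxes and 2 CCAAT boxes before the start and a region of fold 18.1. Lrif1, which encodes a nuclear protein bound to heterochromatin, had 2 ETS cores, 2 CCAAT boxes and 1 GC box, and its region of 1035 bp had a fold of 19.8. Zfp33b and Gm7072 had regions of fold 18.5 and 17.5. The Clcn3 start held none of the marked letters, yet its region of 345 bp reached a fold of 17.2, and the CpG ratio of the window, observed over that given by its C and G content, was 0.65. Clcn3 also had a region within 1 kb of an end of the gene. The Arhgap32 internal start, with a CpG ratio of 0.10 and 1 CCAAT box, carried a region of fold 16.4, while its outermost start had a ratio of 0.16. Marked letters were thus absent before 1 of the 7 open internal starts shown, Clcn3.

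Internal starts under a solitary region were CpG-rich more often than internal starts of other genes with no region within 1 kb, called closed here. A CpG ratio of at least 0.6 was found in 244 of 340 open windows (71.8%, 95% interval 66.8 to 76.3) and in 407 of 1975 closed ones (20.6%, 18.9 to 22.4; Fisher's exact test, two-sided, adjusted p = 4.32e-74 over 8 features). The share over all 32840 start windows was 35.8%, and over 4065 outermost starts of coding genes with a region within 1 kb it was 79.5%. The median ratio was 0.75 in the open and 0.28 in the closed internal windows.

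Most promoter letters were also more frequent in the open windows. GC boxes stood in 65.0% of the open and 26.8% of the closed internal windows (35.7% of all windows; adjusted exact p = 2.36e-40), ETS cores in 17.1% and 3.80% (8.86% of all; adjusted exact p = 1.78e-16), and the palindromic site of NRF1, a factor of respiratory genes, in 10.0% and 1.82% (4.60% of all; adjusted exact p = 1.53e-11). CCAAT was found in 41.2% against 33.4% (37.4% of all; adjusted exact p = 0.00758) and the cAMP response element TGACGTCA in 2.65% against 0.96% (1.79% of all; adjusted exact p = 0.0150). TATAAA and TGANTCA, the AP-1 site, went the other way, with 5.88% against 13.8% (13.6% of all; adjusted exact p = 2.97e-05) and 4.41% against 8.61% (7.81% of all; adjusted exact p = 0.00758). All tests were Fisher's exact tests, two-sided, and both strands of each window were searched. GC boxes, NRF1 sites, ETS cores and the cAMP response element each contain CG, and TATAAA holds no G or C. These features are therefore not independent of the CpG ratio and base content: the median G and C content was 60.0% in the open and 51.7% in the closed internal windows. A match of letters says nothing of whether a factor was bound.

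**Figure D1:**
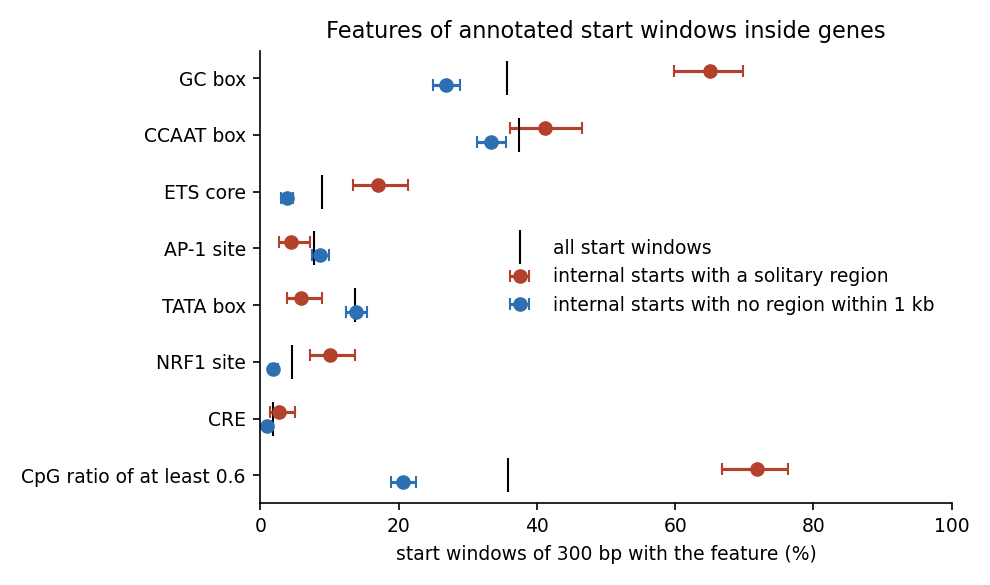
Share of 300 bp start windows that hold each feature (x axis, %), for 340 internal starts with a solitary region (red) and 1975 internal starts of other genes with no region within 1 kb (blue); bars are 95% Wilson intervals and black ticks the share over all 32840 windows. The red points lie to the right of the blue ones for CpG ratio, GC box, ETS core, NRF1 site, CRE and CCAAT box, and to the left for the TATA box and the AP-1 site.

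Within single genes the contrast could be drawn for only 53 genes, in which both the open internal start and an outermost start with no region within 1 kb had a window. The internal window had the higher CpG ratio in 34 genes and the lower one in 19 (exact sign test, two-sided, p = 0.0534), and a ratio of at least 0.6 was found in 31 internal and 16 outermost windows (exact test on the discordant genes, adjusted p = 0.0650). GC boxes stood in 26 internal and 17 outermost windows of these genes (adjusted exact p = 0.209) and NRF1 sites in 8 and 1 (adjusted exact p = 0.156). No feature passed the test after adjustment over the 8 features.

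Solitary regions on an annotated start were stronger, wider and more often made of several summits than the other solitary regions. Their median fold was 7.65 (quartiles 6.06 to 10.3, n = 342 regions) against 6.93 (5.67 to 8.98, n = 4284), and 60.8% of them against 50.0% lay above the median of the latter (adjusted exact p = 0.000159). Median width was 498 bp against 382 bp, with 70.8% against 50.0% above the median (adjusted exact p = 1.57e-13). A single summit was found in 19.0% against 32.2% (adjusted exact p = 3.14e-07). The full IDR score of 1000, given to peaks that rank both high and alike in replicate peak calls, was found in 50.9% against 37.6% (adjusted exact p = 2.54e-06). This score is therefore not independent of signal strength. These were Fisher's exact tests, two-sided, adjusted over 10 comparisons. A region counted as on a start when any of its bases overlapped the window, so wider regions entered this group more easily. The part of this in the width and summit differences was not tested. Of the other regions inside genes, 6.95% (6.34 to 7.62) overlapped an annotated start, a share that did not differ from that of the solitary regions by the test (7.39%, adjusted exact p = 0.383). With midpoints within 500 bp of a start counted instead, the direction turned (7.61% against 7.75%, exact p = 0.798).

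The outermost 5′ end of the gene was closed in most hosts of these start regions. A region lay within 1 kb of that end for 41 of 337 regions at a start (12.2%) against 1435 of 3398 at no start (42.2%; Fisher's exact test, adjusted p = 7.02e-30). The 12500-bp rule bars a region near the 5′ end from having an open neighbour there, so the comparison was repeated for regions over 13500 bp from that end, where it gave 32.3% of 124 against 47.4% of 2970 (adjusted exact p = 0.00101). Starts lay early in their gene, at a median of 5.88 kb from the 5′ end against 55.6 kb for the other solitary regions, and 78.9% of them against 47.3% fell in the 5′ 50% of the host (adjusted exact p = 2.63e-29). Hosts of the start regions were also shorter, with a median of 59.0 kb against 128 kb. These positions depend on where starts are annotated, and no comparison with all annotated internal starts was made.

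Named examples of internal starts spanned several roles. Dnajb4, a heat shock co-chaperone, had a region of fold 16.7, and Tiprl, a regulator of PP2A-type phosphatases, one of 16.7. Egf, which encodes epidermal growth factor and is a classical product of the mouse submandibular gland, had a single solitary region of 263 bp at an annotated start, at chr3:129725274-129725536, with a fold of 12.0. The outermost Egf start, 30.2 kb from that internal start, had no region within 1 kb. Kdm4c, a histone demethylase, had one of 946 bp with 6 summits and a fold of 10.9. Fancc, of the Fanconi anaemia DNA repair complex, and Prickle1, of the planar polarity pathway, shared with Gm20517 the highest number of summits, 8, in regions of 1023 and 1430 bp, the latter the widest of all solitary regions. Zinc finger genes named Zfp supplied 18 of the start regions: 54 of the 397 Zfp genes were hosts (13.6%, beside 14.6% of all 21883 protein-coding genes), and 18 of their 59 solitary regions (30.5%) stood on an annotated start, beside 7.39% of all that were compared, a difference that was not tested. Egf, Dnajb4 and Tiprl, and Pcca, Lrif1, Zfp33b, Clybl, Gm7072 and Arhgap32 above, were chosen after their values were seen.

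As a set, solitary regions had a somewhat higher fold than the other regions inside coding genes. Their fold had a median of 7.03 (quartiles 5.71 to 9.08, range 2.35 to 36.4, n = 4802), against 6.62 (5.40 to 8.47, n = 6277), and 56.2% (54.8 to 57.6) lay above the median of the others, where 50.0% of the others did (Fisher's exact test, adjusted p = 1.74e-10 over 6 shares). They were also less often made of 1 summit, with 31.3% (30.0 to 32.6) against 34.5% (33.3 to 35.6; adjusted exact p = 0.000588), and slightly wider, with 52.2% (50.8 to 53.6) above the median of the others (adjusted exact p = 0.0184). The full IDR score was reached by 38.5% (37.2 to 39.9) against 40.9% (39.7 to 42.1; adjusted exact p = 0.0139). The median −log10 p-value at the strongest summit was also lower, 26.4 against 27.8. By the rule the others have a neighbour within 12500 bp, and its part in their local background and fold was not tested. The width call was lost with gene ends from 2 kb (adjusted exact p = 0.108) and, with the direction turned, with neighbours from 25 kb (49.7% against 49.9%, adjusted exact p = 0.877), and the IDR call among the 50% of regions of lowest q-value (adjusted exact p = 0.841 with solitude kept from the whole list and 0.902 with it worked out again). Very narrow regions were few, with 23 under 150 bp (0.479%) against 1.47% of the other regions inside genes. At the strongest summit, 0 solitary regions and 25 of the others had a q-value above 0.05. Against the 3992 solitary regions outside every gene the order of fold was the opposite: 46.2% of those inside genes lay above the outside median of 7.22 (adjusted exact p = 0.00172 over 5 shares). The shares for summits, width, IDR score and chromosome X did not pass the test in that comparison (Fisher's exact test, adjusted p = 0.364, 0.743, 0.286 and 0.743).

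**Figure D2:**
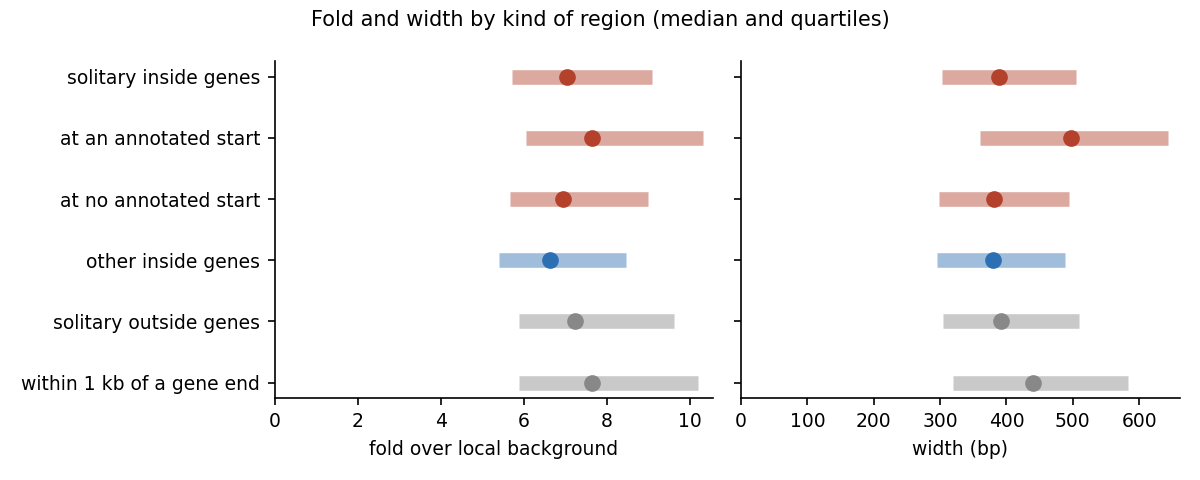
Fold over the local background (left) and width in bp (right) for 6 sets of regions; dots are medians and bars run from the lower to the upper quartile. Solitary regions at an annotated start sit at a median of 7.65 and 498 bp, above the solitary regions at no start (6.93 and 382 bp), while regions within 1 kb of a gene end have medians of 7.63 and 440 bp.

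Regions with a neighbour 12500 to 13500 bp away numbered 254 and had a median fold of 7.19, as had the 263 regions with one 11500 to 12500 bp away, which are not members. Those 1 to 1.5 kb from a gene end numbered 206, with a median fold of 6.78, and those 0.5 to 1 kb from one, which are not members, numbered 284, with 7.31.

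The median solitary region had its nearest neighbour 28.0 kb away (quartiles 18.3 to 50.2 kb), and 416 of them had none within 100 kb. The most isolated lay in Lrrc4c, which encodes a synaptic adhesion protein, at chr2:97466229-97466796, 2414 kb from the next region and with a fold of 6.54. Mageb16 (1838 kb, fold 9.81), Mdga2 (1613 kb, fold 14.2), Il1rapl1 (1410 kb, fold 28.6) and Mageb18 (1163 kb, fold 7.68) followed. Of these 5, which were chosen after their values were seen, 3 are genes of chromosome X.

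Chromosome X held 129 of the 4802 solitary regions (2.69%, 2.27 to 3.18) but 68 of the 6277 other regions inside genes (1.08%, 0.855 to 1.37; Fisher's exact test, adjusted p = 7.45e-10). Per Mb of protein-coding gene, X had a lower density than every autosome, with 2.83 solitary regions against 4.20 to 5.37. Where regions are sparse, fewer of them have a neighbour within 12500 bp, and the part of this in the share on X was not tested. Y had 0, which the design fixed, as the study's methods name only female mice.

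The strongest solitary regions stood in genes of diverse function. Stxbp4, which encodes a syntaxin-binding protein, held the highest fold, 36.4, in a region of only 116 bp at chr11:90538782-90538897. Gnb1l followed with 35.6 (197 bp), Zfp804b with 29.8 (115 bp), the cytoskeletal pseudokinase gene Peak1 with 29.6 (346 bp) and Il1rapl1 with 28.6 (128 bp). Among the 12 highest, 3 were narrower than 150 bp, with 1 summit each. The remaining ones were in Cldn34d (24.6), Gphn, which encodes the receptor-anchoring protein gephyrin (24.0), Zswim6 (23.5), Uggt2 (23.2), Pdlim5 (21.9), Cc2d2a (21.8) and Ptchd4 (21.1). None of these 12 overlapped an annotated start window. The widest, after Prickle1, were in Sec24d (1226 bp, on an annotated start), the synaptotagmin gene Syt1 (1191 bp), Fam102b (1173 bp) and Frmd4b (1170 bp), and 6 solitary regions had 7 summits, among them those in Mgat5, Fggy and Fam102b.

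Host genes were long. Of 21883 protein-coding genes, 3203 (14.6%) held a solitary region, and of the 2428 genes of at least 100 kb, 1366 (56.3%) did. The median host measured 81.8 kb (quartiles 39.5 to 163.9 kb) against 17.2 kb for all protein-coding genes. In 2275 hosts there was 1 solitary region, in 563 there were 2, in 201 there were 3 and in 164 at least 4, and 41 regions lay in 2 overlapping hosts. For 1164 hosts (36.3%) the solitary region was the sole open region of the gene, ends included.

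Foxp1, a forkhead repressor gene of 597 kb, held most, 12 among 23 regions. From the 3′ to the 5′ end its 12 solitary regions had folds of 9.37, 6.74, 12.7, 12.0, 8.84, 6.24, 7.37, 8.50, 4.69, 4.85, 6.06 and 5.84, and the last, 1.66 kb from the 5′ end, overlapped an annotated Foxp1 start. The 8 nearest the 3′ end were at 6.24 or higher, whereas the other 4 lay at or below 6.06, and no region stood within 1 kb of either end. This split was placed after the folds were seen, and a trend along the gene was not tested. Auts2, a gene linked to neural development, held 11 of 25, with folds between 5.24 and 13.1 and a median of 8.50. Macrod2 (10 of 23, median 8.58), which encodes an ADP-ribose hydrolase, and the cAMP phosphodiesterase gene Pde4d (10 of 24, median 7.85) came next. Ank3, for the membrane scaffold ankyrin-G, Aopep, Fhit, Lpp and Rad51b held 9 each, with medians of 8.78, 5.93, 8.01, 6.38 and 6.85. In Fhit, 9 of only 12 regions were solitary and they spread from 10.6% to 86.6% of its 1612 kb. Another 6 genes held 8 each: Arid1b, Cacna2d3, Dnm3, Nav2 and Pard3, with medians of 5.77, 9.59, 9.80, 8.51 and 6.62, and Camta1, with folds from 3.34 to 11.7. Of the 15 genes with at least 8, 7 had a region within 1 kb of an end (Macrod2, Aopep, Fhit, Lpp, Rad51b, Camta1 and Dnm3) and 8 had none. Of the Aopep regions, 2 also lie in Fancc, which overlaps it.

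**Figure D3:**
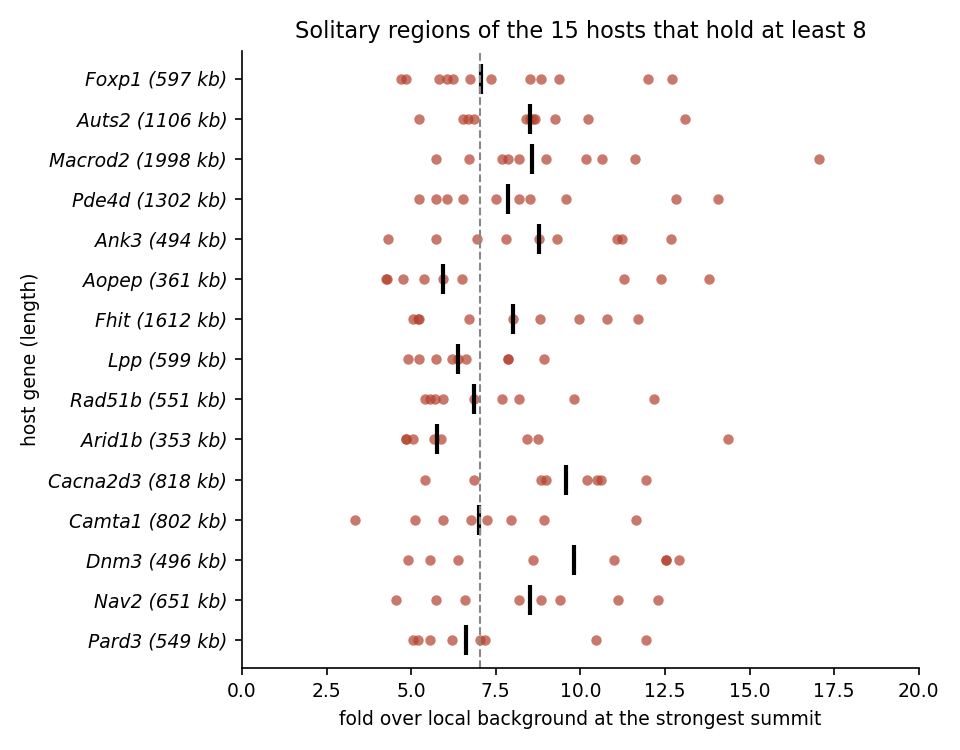
Fold over the local background (x axis) of each solitary region (dots) in the 15 genes that hold at least 8, with gene length in brackets; black bars are medians and the dashed line is the median of all 4802 solitary regions, 7.03. Folds range from 3.34 in Camta1 to 17.1 in Macrod2, and every gene holds regions on both sides of the dashed line.

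Genes with an open end held a solitary region less often than other genes in the 2 shorter classes of length, and more often in the 3 longer ones. Among genes of 20 to 50 kb, 11.1% (9.89 to 12.4) of the 2467 with a region within 1 kb of an end were hosts, against 17.6% (16.2 to 19.1) of the 2627 without one (Fisher's exact test, adjusted p = 1.20e-10 over 5 classes). At 50 to 100 kb the shares were 30.6% and 34.6% (adjusted exact p = 0.0334). From 100 to 200 kb the order was the opposite, 54.6% against 47.6% (adjusted exact p = 0.0131), and the gap was wider at 200 to 400 kb, with 79.7% (73.9 to 84.5) of 217 against 54.9% (50.1 to 59.6) of 421 (adjusted exact p = 8.04e-10), and above 400 kb, with 82.7% (72.6 to 89.6) of 75 against 62.3% (56.5 to 67.8) of 276 (adjusted exact p = 0.00140). A region at an end keeps solitary regions out of the 12500 bp beside it, and the part of this in the shares was not tested. The difference between classes was not itself tested. At 50 to 100 kb the order turned when a region within 2 kb counted as at an end (32.8% against 32.5%, adjusted exact p = 0.865), and the 100 to 200 kb class lost the call when only the 5′ end was considered (53.8% against 49.3%, adjusted exact p = 0.148). With only the 50% of regions of lowest q-value, no call remained at 50 to 100, 100 to 200 and over 400 kb (adjusted exact p = 0.0608, 0.904 and 0.0909). Counted over regions, 40.0% of solitary regions and 53.2% of the others inside genes had a host with a region at an end (adjusted exact p = 2.48e-42), a difference that the 12500-bp rule fixes in part.

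**Figure D4:**
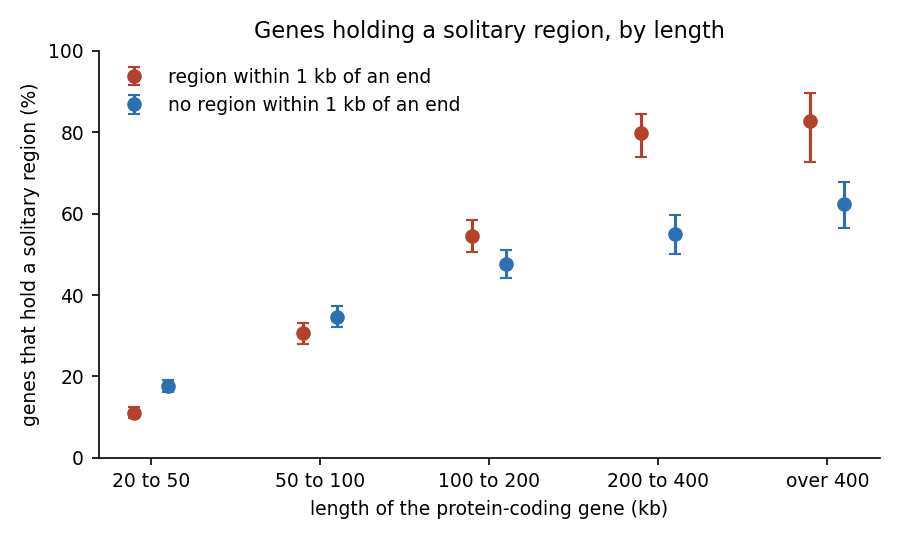
Share of protein-coding genes that hold a solitary region (y axis, %) in 5 classes of gene length (x axis, kb), for genes with (red) and without (blue) an open region within 1 kb of an end; bars are 95% Wilson intervals. Red lies below blue at 20 to 50 kb (11.1% and 17.6%) and above it at 200 to 400 kb (79.7% and 54.9%).

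Along their hosts the solitary regions, taken all together, were spread almost evenly. Where the strand was known and the host was single, 1873 of 3735 (50.1%, 48.5 to 51.7) lay in the 5′ 50% of the gene, against 2968 of 4905 other regions inside genes (60.5%, 59.1 to 61.9; Fisher's exact test, adjusted p = 2.90e-21). In hosts of at least 100 kb the shares were 48.9% and 55.3% (adjusted exact p = 2.76e-05), and without regions at annotated starts they were 47.3% and 58.5%. The first 10% of the gene held 9.02% of the solitary and 13.7% of the other regions, and the last 10% held 8.46% and 5.97%. Neighbours at an open 5′ end take regions there out of the solitary set, so part of the difference in the first 10% is fixed by the rule. Solitary regions at no annotated start were spread less evenly, with 6.39% in the first 10% of the gene and 11.3% from 70% to 80%.

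**Figure D5:**
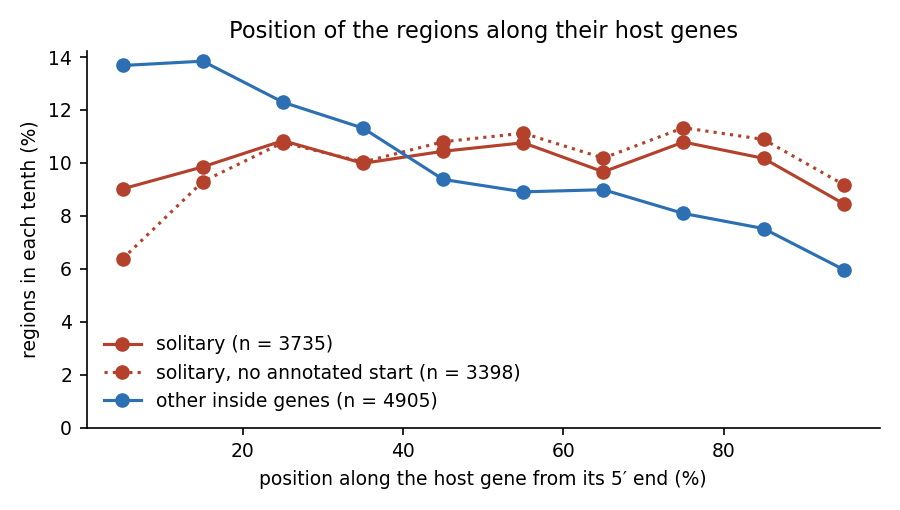
Share of regions (y axis, %) in each 10% of the host gene, from its 5′ end on the left to its 3′ end on the right, for solitary regions (solid red, n = 3735), solitary regions at no annotated start (dotted red, n = 3398) and other regions inside genes (blue, n = 4905). The solid red line stays between 8.46% and 10.8% and the dotted one between 6.39% and 11.3%. The blue line stays between 5.97% and 13.8%, with its highest values on the left.

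Markers of the cell types of these organoids form groups of 2 to 5 genes, too few for a comparison between groups, and are given beside the 14.6% of all protein-coding genes, and 56.3% of those of at least 100 kb, that were hosts. The pro-acinar markers Chrm3, Alcam and Clcn3 were all hosts: the muscarinic receptor gene Chrm3 held 3 solitary regions of fold 6.38, 5.40 and 8.81, Alcam held 1 of 6.38, and Clcn3 the region at its internal start shown above. Of stem/progenitor II markers, Cd44, the hyaluronan receptor gene, held 2 (fold 8.21 in 156 bp and 3.47 in 413 bp) and Trp63, the basal cell transcription factor gene, 2 (fold 4.09 and 11.8), while Itgb1 held 3 regions and none of them solitary. No marker of stem/progenitor I (Sox9, Cd164, Cd24a), basal duct (Krt14, Krt5) or cycling cells (Mki67, Top2a) was a host, and these are genes of 4.35 to 31.3 kb. The luminal duct list gave 1 of 5, Clic1, of fold 7.81, and the myoepithelial-like list 2 of 4, Trp63 and Csrp1.

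A region within 1 kb of an end marked all 3 genes of stem/progenitor I, 2 of 3 of stem/progenitor II, both basal duct, 3 of 5 luminal duct, 2 of 3 pro-acinar, 1 of 2 cycling and 1 of 4 myoepithelial-like genes, beside 39.3% of all protein-coding genes. It marked 0 of 6 endothelial, 0 of 6 fibroblast, 1 of 6 immune and 3 of 6 neuronal genes. None of 6 immune markers was a host and none had any region inside. Of 6 endothelial markers, 3 held 1 solitary region each: the receptor genes Tek (fold 12.2) and Flt1 (7.36) and the adhesion gene Pecam1 (5.34). Of 6 fibroblast markers Pdgfra held 1, of 5.36, and of 6 neuronal markers Syt1 held 5, Snap25, Map2 and Rbfox3 1 each. Fewer cells of a type and fewer open copies per cell cannot be told apart in bulk ATAC-seq, and an open region inside a gene does not show that the gene is transcribed.

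The gene lists that follow were chosen with earlier results of these data known, so their shares cannot show enrichment. Their differences from the shares over all genes were not tested, and the share over genes of at least 100 kb does not match length within that class. Of 59 adhesion and synapse genes of neurons, 27 (45.8%) were hosts, and of the 58 with at least 100 kb, 26 (44.8%) were, below the 56.3% of all genes of at least 100 kb. The median length in this list was 910 kb, and of all genes over 400 kb 66.7% were hosts. The 75 solitary regions of the list had a median fold of 7.52, and only 8 of the 59 genes had a region at an end. Il1rapl1 (28.6), the ankyrin-B gene Ank2 (19.1), Cntnap5b (19.0) and Rbfox1 (15.6) had the highest folds, and Nrxn3 held the one region of this list on an annotated start. Of the very long genes at common fragile sites, stretches that break readily when replication is slowed, all 18 were hosts, with 82 solitary regions and a median fold of 7.44; their median length was 1019 kb, and 66.7% of genes over 400 kb were hosts. Macrod2 (17.1), Naaladl2 (14.9), Nbea (13.2) and Auts2 (13.1) led them, and 13 of the 18 had a region at an end.

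Of 32 axon guidance genes, which also steer epithelial branching and vessel growth, 20 (62.5%) were hosts, 19 of the 28 with at least 100 kb (67.9%, beside 56.3% of all such genes). The semaphorin genes Sema3d (16.5) and Sema3c (14.8) and the receptor genes Robo1 (13.0) and Robo2 (12.9) held the strongest. Slit2, for a Robo ligand, held 2, of which that of fold 7.10 stood on an annotated start 1.84 kb from its 5′ end.

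Of 59 transcription factor genes 37 (62.7%) were hosts, with 85 solitary regions of median fold 7.03, and 33 of the 37 with at least 100 kb (89.2%, beside 56.3% of all such genes) were among them. Sox5 (16.7), which acts in progenitor and cartilage cells, Foxp1 (12.7), Ets1 (12.52) and Esrrg (12.1) held the strongest. In Sox5 the 6 regions had folds of 6.88, 5.17, 8.50, 6.54, 16.7 and 7.03, with a single one far above the others. Rora held 6 regions in all and each was solitary, with folds of 5.09 to 9.15. Runx1 had 14 regions of which 1 was solitary (5.40), and it and Rora were chosen after their values were seen. Of 38 coregulators and chromatin enzymes 20 (52.6%) were hosts, 14 of the 21 with at least 100 kb (66.7%, beside 56.3%), led by the chromatin remodelling gene Arid1b (14.4), the histone deacetylase gene Hdac4 (12.2, with 5 of 5 regions solitary), the coactivator gene Ncoa2 (12.0) and Kdm4c (10.9).

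Of 43 genes of epithelial junctions, polarity and matrix adhesion 19 (44.2%) were hosts, 15 of the 19 with at least 100 kb (78.9%, beside 56.3% of all such genes), and 38 of the 43 had some region inside. Vcl, for the adhesion protein vinculin (16.7), the tight junction scaffold gene Tjp1 (14.3), Magi1 (14.1) and the polarity gene Pard3 (11.9) held the strongest. All 4 regions inside Tjp1 were solitary, of fold 4.76, 11.8, 14.3 and 7.28, and the weakest stood on an annotated start. Pard3 held 8 solitary regions among 11. Of 44 signalling genes of the tissue and its medium 18 (40.9%) were hosts, 14 of the 20 with at least 100 kb (70.0%, beside 56.3%), led by Maml2, a Notch coactivator gene (13.6), the TGF-beta receptor gene Tgfbr2 (12.8), Vav3 (12.49) and Notch2 (11.8). Notch2 held 4, of fold 9.82, 6.18, 7.74 and 11.8. In Maml2, 2 of 17 regions were solitary, and in Vav3, 6 of 10.

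Gene families are given beside the same shares, 14.6% of all protein-coding genes and 56.3% of those of at least 100 kb. Olfactory (Olfr, 1110 genes) and vomeronasal (Vmn, 355) receptor genes, of median length 0.95 and 0.963 kb, held 0 solitary regions; 1 gene of each had any region inside. Receptor-type phosphatase genes (Ptpr) were hosts in 12 of 20 cases (10 of the 15 long ones), Dock exchange factors in 7 of 11 (7 of 10), Arhgap genes in 18 of 34 (13 of 15) and semaphorins in 11 of 20 (8 of 9). Protocadherin genes (Pcdh) were hosts in 2 of 68 (2 of the 29 long ones), and 25 had some region inside. Genes that overlap share regions and ends, and overlap within this family was not examined. Solute carriers (Slc) were hosts in 74 of 389 (19.0%), with a median length of 29.8 kb, and in 20 of the 40 long ones. None of these differences from the shares over all genes was tested.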

How the data were processed

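Bulk ATAC-seq reads of 4 organoid samples were processed by the authors with the ENCODE ATAC-seq pipeline, and 1 list of peaks, which has no column by sample, was analysed here. The deposited list holds, at each summit of a region, the peak caller's fold (a ratio to local background) with −log10 transformed p-value and q-value, and for the region an IDR score; the pipeline version is not given in the sources used here. The submitters' processing notes name GRCm39 and HOMER. A region lay within 1 kb of 30.9% of annotated starts of GRCm38.p6, of 3.78% of these starts shifted by 50 kb, and of 5.04% of GRCm39 coding starts, so the list was read as GRCm38. The 69545 lines were joined into 32011 distinct regions, each with the values of its strongest summit.

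Genes came from the RefSeq table of GRCm38.p6 (49939 genes) and start windows and sequences from RefSeq for the same build (32851 windows, which gave a strand to 17491 of 21883 protein-coding genes). Windows were not compared for 176 regions. Sequences of the regions themselves, and exons and introns, were not analysed here. Shares were compared with two-sided Fisher's exact tests with 95% Wilson intervals and Benjamini-Hochberg adjustment within a family, and paired windows with exact binomial tests. CpG ratios and motifs were computed on the 300 bases of each window.

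Gene lists, families and markers, and the rule that named genes (the 12 hosts with most solitary regions, to which 3 tied with the last were added, the 12 regions of highest fold, the 5 widest and the 5 with most summits, and up to 4 hosts a list by fold) were written down for these data, and the members and lists were chosen with earlier results of these data known. The comparisons at annotated starts and along the host were added after the data were seen. The rule and the test were tested on simulated regions. Scripts ran in Python 3.11.15 with scipy 1.17.1, pandas 2.3.3 and numpy 2.4.6, and matplotlib 3.10.9 drew the plots.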

Additional observations from a re-analysis of the deposited data

How the results depend on the processing

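No paired analysis was possible because the single list holds no value by sample, and for the same reason no sample could be left out. The sizes of the set moved with the rule. With neighbours from 25 kb there were 2704 solitary regions in 2064 genes. In the 50% of regions with the lowest q-values there were 3171 when solitude was worked out again and 2085, in 1638 genes, when it was kept, with median folds of 9.31 and 9.48 and median widths of 453 and 457 bp. The IDR share was then 84.8% against 84.9% (adjusted exact p = 0.902) and 84.7% against 84.9% (adjusted exact p = 0.841), so that difference was lost. The width share was 49.7% against 49.9% with neighbours from 25 kb (adjusted exact p = 0.877) and 51.6% against 50.0% with gene ends from 2 kb (adjusted exact p = 0.108). Against solitary regions outside genes, the shares were 31.3% for 1 summit (30.0% outside), 46.2% for fold (50.0%), 49.2% for width (49.7%), 38.5% for the IDR score (40.2%) and 2.69% for chromosome X (2.81%), and of these only fold passed the test, in the opposite direction. In the classes of gene length, the lowest q-values gave 19.8% against 23.5% at 50 to 100 kb (adjusted exact p = 0.0608), 37.0% against 36.7% at 100 to 200 kb (adjusted exact p = 0.904) and 65.1% against 49.7% above 400 kb (adjusted exact p = 0.0909), a region within 2 kb of an end gave 32.8% at 50 to 100 kb (adjusted exact p = 0.865), and the 5′ end alone gave 53.8% at 100 to 200 kb (adjusted exact p = 0.148). The share at an annotated start turned to 7.61% against 7.75% when midpoints within 500 bp counted (exact p = 0.798). The causes were not tested. The other 58 planned values, among them those with neighbours from 10 kb and with the strongest summit as position, and the other 4 added after the data were seen kept their direction and side of the threshold, or, for counts, stayed within 1.5 times the reported one (2347 host genes with solitude worked out again in the lowest q-values) and, for medians, within its 95% interval. Unknown depth limits how firmly the absence of a neighbour can be read.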
